A study of Mus musculus with 8 samples.

Results

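Unstimulated KLF2+ and KLF2- CD4 T cells of mouse spleen were compared in 4 of the 8 RNA-seq libraries of the series, 2 of each population. All groups came from mice that report KLF2 with GFP and FOXP3 with RFP (KLF2(GFP) FOXP3(RFP)), so that every library carries both alleles. Splenocytes were sorted as FOXP3-negative CD44hi CD4 cells, the surface state of activated and memory T cells, that either did or did not show the KLF2 reporter. The labels enter this sort gate as a genotype, although both populations are cells of the same kind of mouse. Both were kept for 48 h with no anti-CD3 or anti-CD28 antibody before RNA was taken with a column kit, so the RNA is that of cells after rest in culture and not of cells fresh from the spleen. KLF2+ libraries are numbered 1 and 2, and KLF2- libraries 3 and 4. No label states that replicates came from different mice or cultures, so that a p-value gauges only how far these samples spread, and that spread may be technical. The 4 stimulated libraries are not part of the comparison.

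KLF2 (Kruppel-like factor 2) is a zinc finger transcription factor that resting T cells make and that T cell receptor signals switch off. It is known for driving genes of exit from lymphoid organs, such as the sphingosine 1-phosphate receptor S1pr1, and for holding T cells in quiescence. Zinc fingers of the KLF family bind DNA at CACCC-type boxes. Effector helper subsets, follicular helper cells, cells that stay in tissues and freshly activated cells are known to have little of it.

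Each library held between 35.1 and 44.1 M aligned tags, M being mega. Exon reads came to 8.27 and 17.8 M in KLF2+ replicates 1 and 2 and to 7.34 and 8.62 M in KLF2- replicates 3 and 4, which is 23.6% and 43.9% of tags against 18.1% and 19.5%. Olfactory and vomeronasal receptor genes, which T cells are not known to use, served as a gauge of reads that do not come from spliced transcripts. By that gauge 7.06% and 2.61% of exon reads were background in KLF2+ cells, as were 7.80% and 7.09% in KLF2- cells. KLF2+ replicate 2 thus stood apart in depth, in exon share and in background, and each result below was also computed without each library and after subtraction of the background. The correlation of log2 levels over genes, given as a description, was 0.973 between the KLF2+ replicates and 0.985 between the KLF2- replicates. Differences between replicates exceeded counting noise in both groups, with a chi-square per degree of freedom of 27.1 for KLF2+ and 5.38 for KLF2-. Levels are given as CPM, counts per M exon reads after TMM scaling, in the fixed order of KLF2+ replicates 1 and 2 against KLF2- replicates 3 and 4. Fold changes are log2 values of KLF2+ over KLF2-, with their SE (n = 2 per group), from edgeR's quasi-likelihood test, and a gene was called at a Benjamini-Hochberg adjusted p under 0.05 over all genes tested.

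Transcripts of the labelled cell type were abundant in every library. Cd3e, a chain of the T cell receptor complex, stood at 649.96 and 973 CPM in KLF2+ replicates 1 and 2, and 497 and 566 CPM in KLF2- replicates 3 and 4, and Cd4 at 862 and 1086 against 718 and 712 CPM. Neither was called (log2 fold changes 0.61 ± 0.27 and 0.45 ± 0.25). Cd44, by which the cells were gated, stood at 193 and 233 against 178 and 200.2 CPM, with a log2 fold change of 0.17 ± 0.21, and was not called. Its direction turned when scaled on genes of at least 50 CPM, after background subtraction and on the TPM scale. Foxp3, the regulatory T cell factor that the sort left out, stood at 17.6 and 14.7 against 13.4 and 12.7 CPM and was not called (0.31 ± 0.34). Cd8a had at most 2.04 CPM in any of these libraries. Of 14 listed CD4 T cell markers tested, 1 was higher (Thy1) and 13 did not pass. Their median log2 fold change was 0.64, and 12 of the 14 lay above 0. Their summed level was 7421 and 10657 against 5725 and 6441 CPM.

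Klf2 itself (mm10 chromosome 8, 72319062 to 72321654, plus strand) followed the gate. Its transcript stood at 321 and 394 CPM in KLF2+ replicates 1 and 2, and 43.5 and 68.6 CPM in KLF2- replicates 3 and 4. Both KLF2+ libraries lay above both KLF2- libraries, by 6.36-fold in the fit (log2 fold change 2.67 ± 0.27). Since the sort used a reporter of this gene, its value is a description that checks the labels. KLF2- cells kept a measurable level of the transcript. Among 14 tested genes of the KLF family, Klf3, a repressor of the family, was the 1 call besides Klf2, at 309 and 415 against 190.1 and 179.5 CPM (0.97 ± 0.23, edgeR adjusted p = 0.0315). Klf6, Klf10 and Klf13 were among the 12 that did not pass, with log2 fold changes of -0.17 ± 0.26, 0.07 ± 0.25 and 0.65 ± 0.22. Klf3 was not called without KLF2- replicate 3 (edgeR adjusted p 0.915) or without KLF2- replicate 4 (0.912).

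The stretches just upstream of Klf2 and of genes that differed in each direction are shown because KLF zinc fingers are known to bind CACCC boxes. RefSeq's promoter table (GRCm38.p6) held an entry for 77.9% of the genes tested. Each line gives the 250 bases before the annotated start, 5′ to 3′ on the gene's own strand, with each CACCC, or GGGTG for the other strand, in capitals. Itgb7 and Cd55 were higher in KLF2+ cells and Tox2 lower (values below). The regions are chr8:72318812-72319061 (plus strand), chr15:102231936-102232185 (minus strand), chr1:130462745-130462994 (minus strand) and chr2:163225204-163225453 (plus strand).
Klf2: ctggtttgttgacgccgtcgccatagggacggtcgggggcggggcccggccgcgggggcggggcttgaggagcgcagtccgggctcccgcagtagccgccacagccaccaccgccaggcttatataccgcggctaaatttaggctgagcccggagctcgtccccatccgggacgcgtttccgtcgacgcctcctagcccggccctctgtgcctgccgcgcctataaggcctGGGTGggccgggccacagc
Itgb7: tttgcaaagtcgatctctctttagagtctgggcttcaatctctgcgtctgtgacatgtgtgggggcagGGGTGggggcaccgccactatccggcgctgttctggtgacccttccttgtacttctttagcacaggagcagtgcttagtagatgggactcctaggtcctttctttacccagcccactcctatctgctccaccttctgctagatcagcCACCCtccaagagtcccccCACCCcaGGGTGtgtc
Cd55: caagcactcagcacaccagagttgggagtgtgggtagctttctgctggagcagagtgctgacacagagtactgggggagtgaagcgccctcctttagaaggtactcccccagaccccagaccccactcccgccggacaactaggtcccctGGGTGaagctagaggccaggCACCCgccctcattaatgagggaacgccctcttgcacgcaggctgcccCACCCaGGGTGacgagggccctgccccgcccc
Tox2: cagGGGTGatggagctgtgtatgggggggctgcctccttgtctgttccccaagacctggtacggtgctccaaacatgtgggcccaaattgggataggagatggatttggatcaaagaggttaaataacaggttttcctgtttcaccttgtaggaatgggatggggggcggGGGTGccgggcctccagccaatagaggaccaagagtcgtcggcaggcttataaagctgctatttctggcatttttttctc
The box occurs 1 time upstream of Klf2, 4 times upstream of Itgb7, 4 times upstream of Cd55 and 2 times upstream of Tox2. It occurs 0 times in the same window of Il7r, which was higher in KLF2+ cells, and 1 time in that of Kit, which was lower. The number of boxes thus differed among genes of the same direction, and these few windows do not show what is typical of either. The same letters occur in 52.01% of the 32851 upstream windows of this length in the table. A match is a description of the letters and not a binding site.

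Between the unstimulated populations 828 of 17620 tested genes were called, or 4.70%, with 412 higher in KLF2+ cells (2.34%) and 416 lower (2.36%) by edgeR. Of these, 100 were higher and 191 lower by at least 4-fold. In all 828, both libraries of one population lay above both of the other, a pattern that 60.2% of all tested genes showed. An exact permutation test of a single gene over these 4 libraries cannot give a two-sided p below 0.333. Over all genes the log2 fold changes had a median of -0.08, and -0.35 when scaled on genes of at least 50 CPM, where 293 genes were higher and 577 lower (4.94% called). After background subtraction 358 were higher (2.53%) and 868 lower (6.14%) of 14136 tested, 8.67% in all, and 696 of the 828 kept their call and direction. DESeq2 called 8.08%, with 4.62% higher and 3.46% lower. The count moved with single libraries. It was 10274 without KLF2+ replicate 1, 2397 without KLF2+ replicate 2, 224 without KLF2- replicate 3 and 269 without KLF2- replicate 4, in fits where the lone library of a population is assumed to vary like the other population. A core of 165 genes, 65 higher and 100 lower, was called under each of the 14 alternatives. Fewer cells of a type and less RNA per cell cannot be told apart in such bulk samples. The edgeR shares of 2.34% higher and 2.36% lower over all genes are the background for each list count below.

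**Figure D1:**
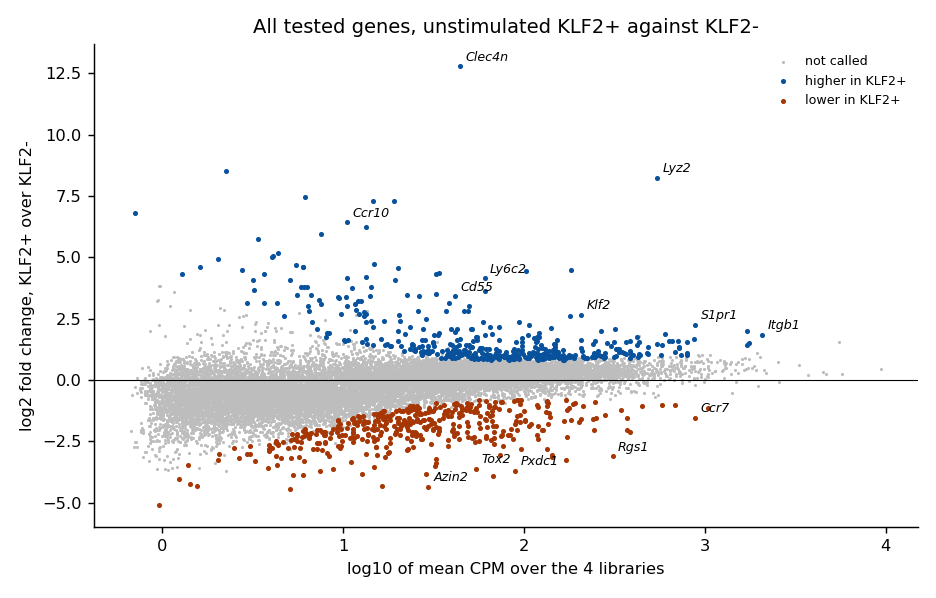
Log2 fold change of KLF2+ over KLF2- unstimulated cells against the log10 of the mean CPM over the 4 libraries, 1 point per tested gene, with called genes coloured. Of the 50 most read called genes, at the right, 41 were higher, Itgb1 and S1pr1 among them. The height of Clec4n rests on 0.5 and 0 reads in the KLF2- libraries and is not a measured ratio.

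**Figure D2:**
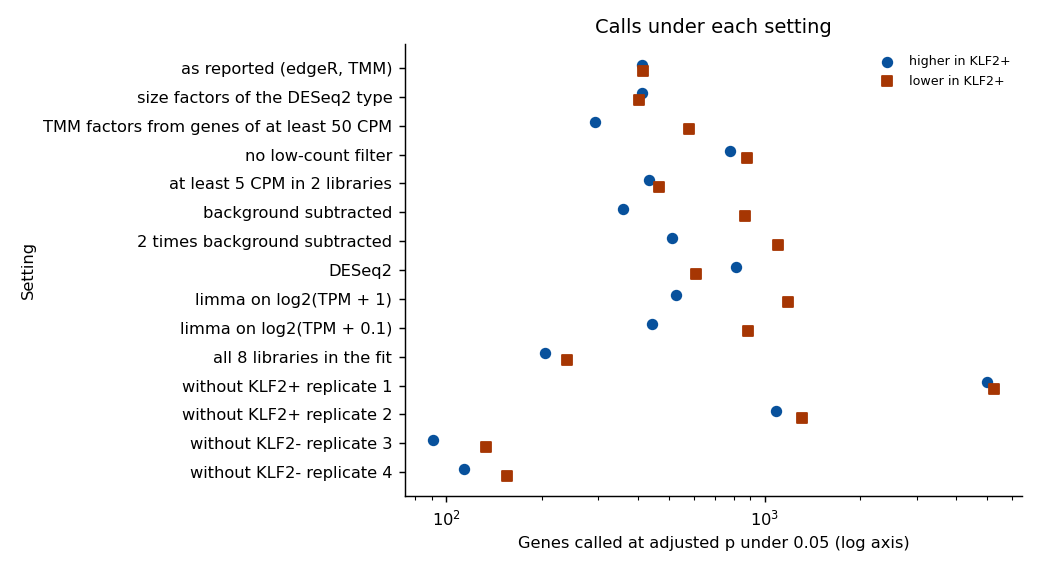
Number of genes called higher (circles) and lower (squares) in KLF2+ cells, on a log axis, for the reported fit and its 14 alternatives. The total runs from 224 without KLF2- replicate 3 to 10274 without KLF2+ replicate 1.

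Receptors of exit from tissue and of homing were among the most read genes that were higher in KLF2+ cells. Of 23 genes of lymphoid egress and homing, 9 were higher against 2.34% of all genes, 4 were lower and 10 did not pass, with a median log2 fold change of 0.29 against -0.08 over all genes, moving from 0.23 without KLF2+ replicate 2 to 0.56 without KLF2+ replicate 1. S1pr1 (mm10 chromosome 3, 115710433 to 115715055), the receptor that leads T cells out of lymphoid tissue along sphingosine 1-phosphate, stood at 1167 and 1755 CPM in KLF2+ replicates 1 and 2, and 268 and 344 CPM in KLF2- replicates 3 and 4, a 4.77-fold difference (log2 fold change 2.26 ± 0.29, edgeR adjusted p = 0.000713). Either KLF2+ library was several times above either KLF2- library. The lymphocyte sphingosine 1-phosphate receptor S1pr4 was also higher, at 128 and 154 against 46.01 and 62.9 CPM (1.37 ± 0.23), as was the gut homing receptor Gpr15 at 23.2 and 25.9 against 7.33 and 8.10 CPM (1.65 ± 0.33), a gene picked after its values were seen. Cd69, which pulls S1PR1 from the cell surface, was likewise picked and was higher too, at 44.2 and 65.4 against 22.05 and 28.2 CPM (1.13 ± 0.26, edgeR adjusted p = 0.0279). Among the lower genes, Cxcr4, the receptor for CXCL12, stood at 17.99 and 18.2 against 52.5 and 53.8 CPM (-1.56 ± 0.23). Ccr7, the chemokine receptor for lymph node T zones, moved opposite to S1pr1 and stood at 348 and 554 against 1257 and 1353 CPM (-1.53 ± 0.28, edgeR adjusted p = 0.00785). CCR7 is also a defining receptor of mature dendritic cells, whose other genes moved with it (below), and their part in the Ccr7 result was not tested. The counts of higher genes in this list ran from 0 without KLF2- replicate 3 to 12 without KLF2+ replicate 1, and those of lower genes from 0 without KLF2- replicate 4 to 9 without KLF2+ replicate 1. S1pr1, Gpr15, Cd69 and Ccr7 were not called without KLF2- replicate 3 (edgeR adjusted p 0.252 to 0.72) or without KLF2- replicate 4 (0.083 to 0.421), and S1pr4 was not called without KLF2- replicate 3 (edgeR adjusted p 0.414), and Cxcr4 was not called without KLF2- replicate 4 (edgeR adjusted p 0.0513). Cd69 was not called after background subtraction (edgeR adjusted p 0.0539).

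The integrin subunits alpha-4, beta-7 and beta-1, which pair as the leukocyte homing receptors alpha-4 beta-7 and alpha-4 beta-1, were higher in KLF2+ cells, while integrin genes as a list were evenly split. Itgb1 (beta-1) stood at 2886 and 3611 CPM in KLF2+ replicates 1 and 2, and 796 and 1002 CPM in KLF2- replicates 3 and 4 (1.85 ± 0.30, edgeR adjusted p = 0.00333), Itgb7 (beta-7) at 1090.4 and 1294 against 399 and 411 CPM (1.56 ± 0.25) and Itga4 (alpha-4) at 524 and 477 against 249.1 and 292 CPM (0.89 ± 0.23). The laminin receptor subunit Itga7 stood at 53.1 and 79.03 against 13.9 and 20.4 CPM (1.95 ± 0.28, edgeR adjusted p = 0.00144). In total 5 of 26 integrin genes were higher, 2 were lower and 19 did not pass, with 13 above 0, 13 below 0 and a median log2 fold change of -0.05. Lower were Itgb4, at 1.67 and 1.07 against 9.85 and 6.06 CPM, and Itga5, the fibronectin receptor subunit, at 10.9 and 7.22 against 22.2 and 23.7 CPM. Itgal and Itgb2, the subunits of LFA-1, did not pass (0.07 ± 0.23 and 0.38 ± 0.23). Itgax, which encodes the CD11c chain of myeloid cells, was the fifth higher gene, at 10.7 and 12.1 against 1.97 and 0.858 CPM. Itgb1, Itgb7, Itga4, Itgb4, Itga5 and Itgax were not called without KLF2- replicate 3 (edgeR adjusted p 0.0622 to 0.995) or without KLF2- replicate 4 (0.384 to 0.909). Itga4 was not called after background subtraction (edgeR adjusted p 0.0866). It was also lost with DESeq2-type size factors, when scaled on genes of at least 50 CPM and after subtraction of 2 times the background. Limma on either TPM scale and the fit to all 8 libraries did not call it either. Itga7 was called under each of the 14 alternatives.

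**Figure D3:**
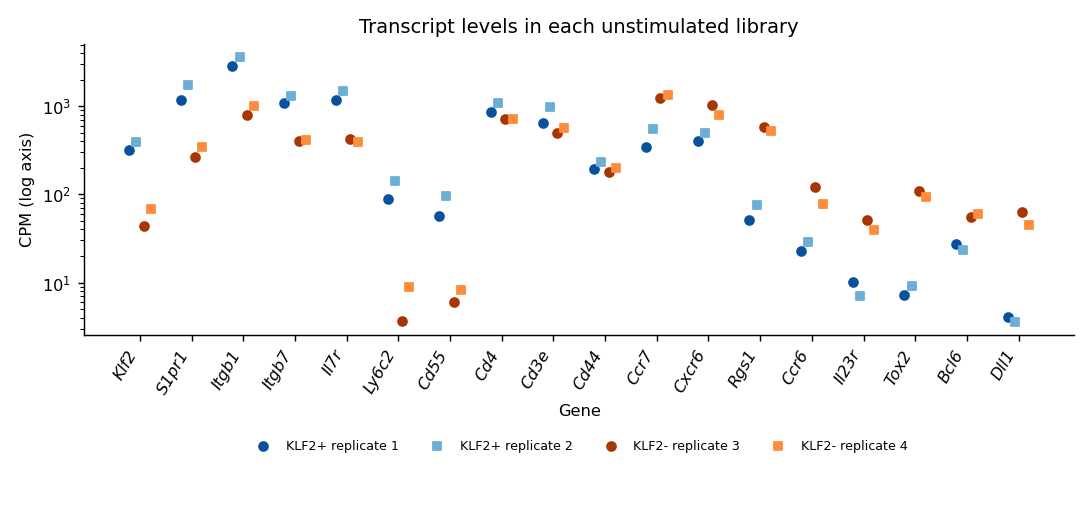
CPM of 18 genes in each of the 4 unstimulated libraries, on a log axis, with KLF2+ replicates in blue and KLF2- replicates in orange. Klf2 and 6 surface protein genes lie higher in both KLF2+ libraries, Cd4, Cd3e and Cd44 lie close together, and the genes from Ccr7 to Dll1 lie higher in both KLF2- libraries.

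Receptors for inflammatory chemokines were divided. Of 13 tested, 3 were higher, 4 lower and 6 did not pass. Ccr10, the receptor for skin and mucosal chemokines, was found at 189.5 and 276 reads against 0 and 4, which is 22.6 and 18.97 against 0 and 0.429 CPM. It was thus almost confined to the KLF2+ libraries among these 4. Ccr2, the receptor for monocyte chemoattractants, which effector memory T cells and monocytes share, stood at 99.6 and 90.6 against 25.9 and 27.3 CPM (1.84 ± 0.21, edgeR adjusted p = 0.000338), and Ccr4 at 53.4 and 37.8 against 20.02 and 15.3 CPM (1.37 ± 0.27). Lower in KLF2+ cells were Ccr6, the CCL20 receptor of Th17 cells, at 22.9 and 28.9 against 121 and 76.96 CPM (-1.93 ± 0.26, edgeR adjusted p = 0.000918), and Ccr8 at 6.91 and 4.23 against 22.9 and 20.4 CPM (-1.97 ± 0.39). Cxcr6, a receptor of cells that stay in tissues, stood at 408 and 496 against 1040.1 and 802 CPM (-1.03 ± 0.26). Ackr3, a scavenger of CXCL12, was the fourth lower gene. Cxcr3, a receptor of Th1 cells, did not pass (0.52 ± 0.26). Ccr10, Ccr2 and Ccr6 were called under each of the 14 alternatives. Ccr4, Ccr8, Cxcr6 and Ackr3 were not called without KLF2- replicate 3 (edgeR adjusted p 0.0848 to 0.995) or without KLF2- replicate 4 (0.226 to 0.756). Ccr4 was not called after background subtraction (edgeR adjusted p 0.0678). Cxcr6 was also lost with DESeq2-type size factors and with all 8 libraries in the fit.

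Some small lipid-anchored surface proteins of the Ly6 family were higher in KLF2+ cells. Of 11 tested, 5 were higher and 6 did not pass, 3 of all lay below 0, and the median log2 fold change was 1.23. Leaving out libraries moved it from 0.81 without KLF2+ replicate 2 to 1.62 without KLF2+ replicate 1. The summed level of the list overlapped between populations (1912 and 2935 against 2092 and 1856 CPM). Ly6c2, a marker of memory T cells and of monocytes, stood at 87.6 and 142 CPM in KLF2+ replicates 1 and 2, and 3.70 and 8.96 CPM in KLF2- replicates 3 and 4 (4.16 ± 0.38, edgeR adjusted p = 8.26e-05). Its neighbour Ly6c1 stood at 60.5 and 116 against 7.33 and 14.5 CPM (3.00 ± 0.37) and Ly6i at 19.4 and 38.02 against 0.677 and 1.39 CPM (4.72 ± 0.51). These copies are close to each other in sequence, so reads may be split between them and their separate folds are uncertain. Thy1, the T cell surface glycoprotein, stood at 42.8 and 71.02 against 21.9 and 26.7 CPM (1.23 ± 0.27). Plaur, the urokinase receptor, stood at 11.1 and 15.5 against 1.29 and 1.45 CPM, and Ly6a did not pass (0.80 ± 0.28). Cd55 (mm10 chromosome 1, 130439026 to 130462744), the decay-accelerating factor that protects a cell from complement, stood at 56.4 and 96.2 against 6.04 and 8.15 CPM (3.42 ± 0.31, edgeR adjusted p = 8.26e-05). Both KLF2+ libraries were about an order of magnitude above the KLF2- libraries in Cd55, which was called under each of the 14 alternatives. Of 9 genes of complement control and self-recognition, Cd55 and Sirpa, a myeloid receptor for CD47, were higher (Sirpa 73.4 and 100 against 33.6 and 38.5 CPM) and 7 did not pass, with Cd47 at a log2 fold change of 0.55 ± 0.26. Monocytes and macrophages also have Ly6C, PLAUR and SIRPA, and their markers, 16 of 27 higher, summed to 2205 and 3751 against 704 and 826 CPM. The part of those cells in the Ly6 and Sirpa results was not tested. Thy1, Plaur and Sirpa were not called without KLF2- replicate 3 (edgeR adjusted p 0.086 to 0.491) or without KLF2- replicate 4 (0.0562 to 0.127).

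Some antiproliferative and quiescence genes were higher with Klf2. Of 25 tested, 6 were higher, 1 was lower and 18 did not pass, with a median log2 fold change of 0.48 that moved from 0.25 without KLF2+ replicate 2 to 0.80 without KLF2+ replicate 1. Tob1, which slows entry into the cell cycle, stood at 158 and 216 against 52.3 and 58.9 CPM (1.75 ± 0.23, edgeR adjusted p = 0.000742). Pdlim1, a cytoskeletal adaptor, stood at 77.6 and 119.8 against 14.2 and 24.6 CPM (2.35 ± 0.30). Txnip, which limits glucose uptake, stood at 787 and 1285 against 350.3 and 459.7 CPM (1.35 ± 0.29), and Tsc22d3, the glucocorticoid-induced leucine zipper gene, at 135 and 177 against 76.99 and 62.6 CPM (1.16 ± 0.23). Vsir, which encodes the inhibitory receptor VISTA, stood at 351 and 497 against 131 and 167 CPM (1.51 ± 0.25). The 1 lower gene was Cdkn1a, the CDK inhibitor p21, at 45.9 and 50.8 against 152 and 159 CPM (-1.68 ± 0.21, edgeR adjusted p = 0.000527). Btg1 and Btg2, antiproliferative genes of resting T cells, did not pass (0.26 ± 0.29 and 0.75 ± 0.24). Tob1 and Pdlim1 were called under each of the 14 alternatives. Higher genes of the list ran from 2 without KLF2- replicate 3 or KLF2- replicate 4 to 16 without KLF2+ replicate 1. Txnip, Tsc22d3 and Vsir were not called without KLF2- replicate 3 (edgeR adjusted p 0.242 to 0.995) or without KLF2- replicate 4 (0.114 to 0.639).

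Of 24 transcription factors of memory and stemness, 3 were higher, 2 were lower and 19 did not pass, against 2.34% higher and 2.36% lower over all genes. Lef1, a partner of TCF-1, stood at 602 and 929 against 358 and 389 CPM (1.04 ± 0.26), the ETS factor Fli1 at 282 and 363 against 160.3 and 178 CPM (0.93 ± 0.22) and Tbx21, which encodes the Th1 factor T-bet, at 97.8 and 87.9 against 52.7 and 45.3 CPM (0.92 ± 0.21, edgeR adjusted p = 0.0271). Tcf7 itself, the gene of TCF-1, did not pass, at 1875 and 2512 against 1594 and 1686 CPM (0.42 ± 0.29, edgeR adjusted p = 0.385). Tox2 (mm10 chromosome 2, 163225454 to 163324169), a nuclear factor of follicular helper cells, was lower in KLF2+ cells, at 7.21 and 9.07 against 109 and 93.1 CPM (-3.63 ± 0.25, edgeR adjusted p = 1.31e-05). Bcl6, the master factor of follicular helper cells, stood at 27.04 and 23.5 against 55.1 and 59.8 CPM (-1.19 ± 0.22). Tox2 differed by 12.3-fold and was called under each of the 14 alternatives. The split was 2 higher and 4 lower after background subtraction. Lef1, Fli1, Tbx21 and Bcl6 were not called without KLF2- replicate 3 (edgeR adjusted p 0.228 to 0.995) or without KLF2- replicate 4 (0.379 to 0.917). Tbx21 was not called after background subtraction (edgeR adjusted p 0.102). It was also lost when scaled on genes of at least 50 CPM, with limma on either TPM scale and with all 8 libraries in the fit.

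Of 30 cytokine receptor genes, 2 were higher, 4 were lower and 24 did not pass, against 2.34% higher and 2.36% lower over all genes. Il7r, the receptor chain for the survival cytokine IL-7, stood at 1180.3 and 1482 CPM in KLF2+ replicates 1 and 2, and 429.7 and 398 CPM in KLF2- replicates 3 and 4, a 3.22-fold difference (1.69 ± 0.26, edgeR adjusted p = 0.00229). Il10ra, which senses IL-10, stood at 130.02 and 141 against 61.2 and 55.8 CPM (1.21 ± 0.21). Both were higher in each KLF2+ library, as were 27.5% of all tested genes. Lower in KLF2+ cells were the IL-1 receptor Il1r1 at 17.9 and 13.2 against 78.03 and 60.7 CPM (-2.17 ± 0.26, edgeR adjusted p = 0.000367), the IL-23 receptor Il23r at 10.1 and 6.94 against 51.2 and 39.4 CPM (-2.42 ± 0.30) and the IL-12 receptor chain Il12rb2 at 8.46 and 8.46 against 22.2 and 25.3 CPM (-1.49 ± 0.33). The interferon-gamma receptor chain Ifngr2 stood at 38.4 and 49.5 against 75.8 and 83.1 CPM (-0.85 ± 0.22). Il2ra, Il2rb and Il2rg, which build the IL-2 receptor, did not pass (-0.05 ± 0.23, 0.07 ± 0.24 and 0.73 ± 0.27), nor did Tgfbr1 and Tgfbr2 (-0.01 ± 0.22 and 0.69 ± 0.23). Il1r1 and Il23r were called under each of the 14 alternatives. Il7r, Il10ra, Il12rb2 and Ifngr2 were not called without KLF2- replicate 3 (edgeR adjusted p 0.255 to 0.691) or without KLF2- replicate 4 (0.4 to 0.88).

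Cytokine genes were mostly not called in these unstimulated cells. Of 31 tested, 4 were higher, against 2.34% of all genes, and 27 did not pass. The 4 were Cd40lg, the ligand by which helper T cells signal to B cells, at 124 and 196 against 69.7 and 80.8 CPM (1.09 ± 0.25), Tnf at 25.8 and 23.6 against 9.36 and 9.06 CPM (1.42 ± 0.32), Flt3l, the growth factor of dendritic cells, at 53.8 and 62.6 against 22.4 and 30.8 CPM (1.13 ± 0.24), and Tnfsf9 at 13.8 and 18.3 against 6.04 and 4.29 CPM. Ifng stood at 16.8 and 25.2 against 22.6 and 37.8 CPM (-0.52 ± 0.32, edgeR adjusted p = 0.334), and Il2 at 13.3 and 16.2 against 7.33 and 3.27 CPM (1.49 ± 0.47, edgeR adjusted p = 0.0973). Neither passed, and the Ifng libraries of the 2 populations overlapped. Il4 (4.1095 and 2.23 against 6.96 and 6.81 CPM), Il10 (1.61 and 1.41 against 2.16 and 2.20 CPM) and Il21 (2.92 and 3.78 against 2.09 and 3.70 CPM) were low throughout and did not pass, and Il17a had at most 0.677 CPM in any of the 4 libraries. After background subtraction 2 were higher and 1 lower, and when scaled on genes of at least 50 CPM 1 was higher and 1 lower. Cd40lg, Tnf, Flt3l and Tnfsf9 were not called without KLF2- replicate 3 (edgeR adjusted p 0.523 to 0.79) or without KLF2- replicate 4 (0.119 to 0.88). Flt3l and Tnfsf9 were not called after background subtraction (edgeR adjusted p 0.0537 to 0.0734).

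Chemokine genes differed in both directions, 7 of 18 higher and 4 lower, and the higher ones were largely those known from myeloid cells. Ccl6 stood at 43.3 and 86.6 against 2.65 and 3.65 CPM (4.35 ± 0.38, edgeR adjusted p = 5.62e-05) and Ccl9 at 27.6 and 45.5 against 1.23 and 3.06 CPM (4.09 ± 0.45). Cxcl3, a neutrophil attractant, was found at 51 and 141.5 reads against 4 and 0, and Ccl3 at 33 and 73.5 reads against 0.5 and 0. Ccl1, Ccl20 and Cxcl2 had at most 3 reads over both KLF2- libraries as well, and for these and Ccl3 no fold is given. Lower in KLF2+ cells were Cxcl16, the membrane-bound ligand of CXCR6, at 19.5 and 35.1 against 115 and 178 CPM (-2.41 ± 0.30, edgeR adjusted p = 0.000597), and the CCR4 ligands Ccl17 at 13.8 and 13.6 against 62.7 and 41.2 CPM (-1.92 ± 0.27) and Ccl22 at 277 and 309 against 723 and 489 CPM (-1.05 ± 0.25), with Ccl24. The macrophage markers summed to 2205 and 3751 against 704 and 826 CPM, beside the higher chemokines, and the mature dendritic cell genes, which hold Ccl17 and Ccl22, to 3572 and 4572 against 9673 and 10540.3 CPM. Their part in the chemokine results was not tested. Ccl1, Ccl3, Ccl20, Cxcl2, Ccl22 and Ccl24 were not called without KLF2- replicate 3 (edgeR adjusted p 0.061 to 0.995) or without KLF2- replicate 4 (0.0708 to 0.834), and Ccl17 was not called without KLF2- replicate 3 (edgeR adjusted p 0.1), and Cxcl3 was not called without KLF2- replicate 4 (edgeR adjusted p 0.16). Cxcl2 was not called after background subtraction (edgeR adjusted p 0.0647).

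Genes of the Th17 type were lower in KLF2+ cells. Of 25 tested, 9 were lower by edgeR against 2.36% of all genes, 0 were higher and 16 did not pass. At an unadjusted edgeR p under 0.05, 1 was higher and 10 were lower, where 4055 of all 17620 genes passed in either direction. With DESeq2 1 was higher and 9 were lower, against 4.62% and 3.46% of all genes. The median log2 fold change was -0.47, and it moved from -0.60 without KLF2- replicate 4 to -0.24 without KLF2+ replicate 1. Il23r, Il1r1 and Ccr6, genes of receptors, were given above. Each KLF2- library exceeded each KLF2+ library in all 3, as in 32.6% of all tested genes. Pxdc1 stood at 10.96 and 14.3 against 209 and 122 CPM (-3.70 ± 0.30) and Tmem176a, a membrane protein gene, at 37.1 and 50.9 against 168 and 125 CPM (-1.73 ± 0.24). Rora, Maf, Ahr and Batf did not pass (-0.37 ± 0.21, -0.44 ± 0.25, 0.48 ± 0.27 and 0.30 ± 0.22), nor did Il22 (2.66 ± 0.77) or Il17f (0.59 ± 0.63). Il17a was below the level tested, so the 9 lower genes include 3 cytokine or chemokine receptors but no cytokine. Kit, the stem cell factor receptor, moved with them, at 25.97 and 22.3 against 195 and 143 CPM (-2.81 ± 0.24, edgeR adjusted p = 4.82e-05). KIT with IL-23R and CCR6 also marks innate lymphoid cells of the lymphoid tissue inducer type. Of 29 genes of that cell type, a list drawn up after the values were seen, 11 were lower, 2 were higher (Il7r and Thy1) and 16 did not pass. Its ligand genes Tnfsf11, Lta and Ltb did not pass (0.10 ± 0.22, 0.49 ± 0.21 and 0.04 ± 0.27). The list's median log2 fold change was -0.72, and -1.06 after background subtraction, where 14 were lower and 2 higher. It summed to 4670.5 and 6325 against 5638 and 5163 CPM, ranges that overlap, with the higher gene Il7r in the sum. The part of such cells in the Th17 result was not tested. The lower Th17 genes ran from 7 without KLF2- replicate 3 to 11 without KLF2+ replicate 1 or KLF2+ replicate 2. Kit, Pxdc1 and Tmem176a were called under each of the 14 alternatives.

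Genes of follicular helper cells, which guide B cells in germinal centres, were lower in 4 of 26, higher in 2 and did not pass in 20. Beside Tox2 and Bcl6, the lower genes were Pdcd1, which encodes PD-1, at 84.7 and 103 against 162 and 187 CPM (-0.90 ± 0.21, edgeR adjusted p = 0.0323), and the ATP receptor P2rx7 at 40.4 and 31.4 against 102 and 93.6 CPM (-1.45 ± 0.22). Cxcr5, the receptor for the B cell follicle, stood at 41.04 and 63.1 against 99.1 and 82.5 CPM (-0.80 ± 0.24, edgeR adjusted p = 0.0872) and did not pass. Its KLF2- libraries both lay above its KLF2+ libraries, a pattern that 32.6% of all tested genes showed. The higher genes were Btla, an inhibitory receptor, at 82.3 and 80.2 against 45.6 and 34.6 CPM (1.02 ± 0.22), and Cd40lg. Icos, Sh2d1a and Slamf6 did not pass (0.53 ± 0.22, 0.14 ± 0.24 and 0.36 ± 0.27). After background subtraction 8 were lower and 1 was higher, and the same counts held when scaled on genes of at least 50 CPM. Pdcd1 and Btla were not called without KLF2- replicate 3 (edgeR adjusted p 0.265 to 0.62) or without KLF2- replicate 4 (0.865 to 0.902), and P2rx7 was not called without KLF2- replicate 3 (edgeR adjusted p 0.0528). Btla was not called after background subtraction (edgeR adjusted p 0.0764). It was also lost when scaled on genes of at least 50 CPM, with limma on either TPM scale and with all 8 libraries in the fit. Pdcd1 was also lost with DESeq2-type size factors and with all 8 libraries in the fit.

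Of 16 genes of the Th2 type, 3 were lower and 1 was higher, with Gata3, the master factor, at 159.6 and 247 against 185 and 204 CPM (0.06 ± 0.24) and not called. Nfil3, a basic leucine zipper factor, stood at 16.1 and 25.02 against 101 and 104 CPM (-2.30 ± 0.25, edgeR adjusted p = 0.000233) and Bhlhe41 at 7.03 and 5.71 against 21.4 and 15.3 CPM (-1.53 ± 0.39). The chemokine receptors Ccr8 and Ccr4, given above, made up the other lower and the 1 higher gene. Of 21 genes of the Th1 type, 4 were higher, 3 were lower and 14 did not pass. Nkg7, a granule protein of cytotoxic and Th1 cells, stood at 89.04 and 149.5 against 27.2 and 26.3 CPM (2.16 ± 0.27, edgeR adjusted p = 0.000492) and Hopx, a homeobox gene of long-lived Th1 cells, at 115 and 215 against 43.7 and 49.02 CPM (1.83 ± 0.28, edgeR adjusted p = 0.00224). Tbx21 was the third and Ccl3 the fourth of the higher genes. Irf8, which is also among the listed dendritic cell markers, stood at 67.6 and 86.2 against 174 and 219 CPM (-1.35 ± 0.23). It was lower with Il12rb2 and Cxcr6, and the part of dendritic cells in its result was not tested. After background subtraction Th2 calls were 3 lower with no higher gene, and Th1 calls 3 higher and 4 lower. Gata3 turned its direction when scaled on genes of at least 50 CPM, after background subtraction and on the TPM scale. Bhlhe41 lost its call when scaled on genes of at least 50 CPM, with limma on either TPM scale and with all 8 libraries in the fit. Bhlhe41 was not called without KLF2- replicate 3 (edgeR adjusted p 0.995) or without KLF2- replicate 4 (0.486), and Irf8 was not called without KLF2- replicate 4 (edgeR adjusted p 0.247).

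Of 24 genes of regulatory T cells, 5 were lower, 1 was higher and 18 did not pass, Foxp3 among the last. Lower were Tnfrsf9, which encodes the costimulatory receptor 4-1BB, at 32.5 and 36.8 against 92.4 and 97.7 CPM (-1.45 ± 0.21, edgeR adjusted p = 0.00153), the inhibitory receptor Tigit at 3.75 and 5.77 against 22.6 and 22.95 CPM (-2.23 ± 0.38), and Lrrc32, whose product GARP holds latent TGF-beta on the surface, at 10.1 and 6.84 against 43.1 and 36.4 CPM (-2.25 ± 0.30). Ikzf4, the gene of the zinc finger factor Eos, stood at 19.2 and 10.7 against 39.2 and 38.2 CPM (-1.38 ± 0.31), and the cytokine feedback gene Socs2 at 41.1 and 56.5 against 155 and 184 CPM (-1.79 ± 0.23). The higher gene was Capg, an actin capping protein, at 139.7 and 240.3 against 83.1 and 83.9 CPM (1.19 ± 0.26). Il2ra, Ctla4, Ikzf2, Tnfrsf18 and Tnfrsf4 did not pass (-0.05 ± 0.23, 0.35 ± 0.30, -0.72 ± 0.25, 0.53 ± 0.26 and 0.27 ± 0.25). Foxp3 and Il2ra were not among the 5 lower genes. The sort had left FOXP3-positive cells out of both populations, so that the Foxp3 value is only a description. The lower genes of the list ran from 3 without KLF2- replicate 3 or KLF2- replicate 4 to 10 without KLF2+ replicate 1. Tigit, Ikzf4 and Capg were not called without KLF2- replicate 3 (edgeR adjusted p 0.122 to 0.48) or without KLF2- replicate 4 (0.147 to 0.379).

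**Figure D4:**
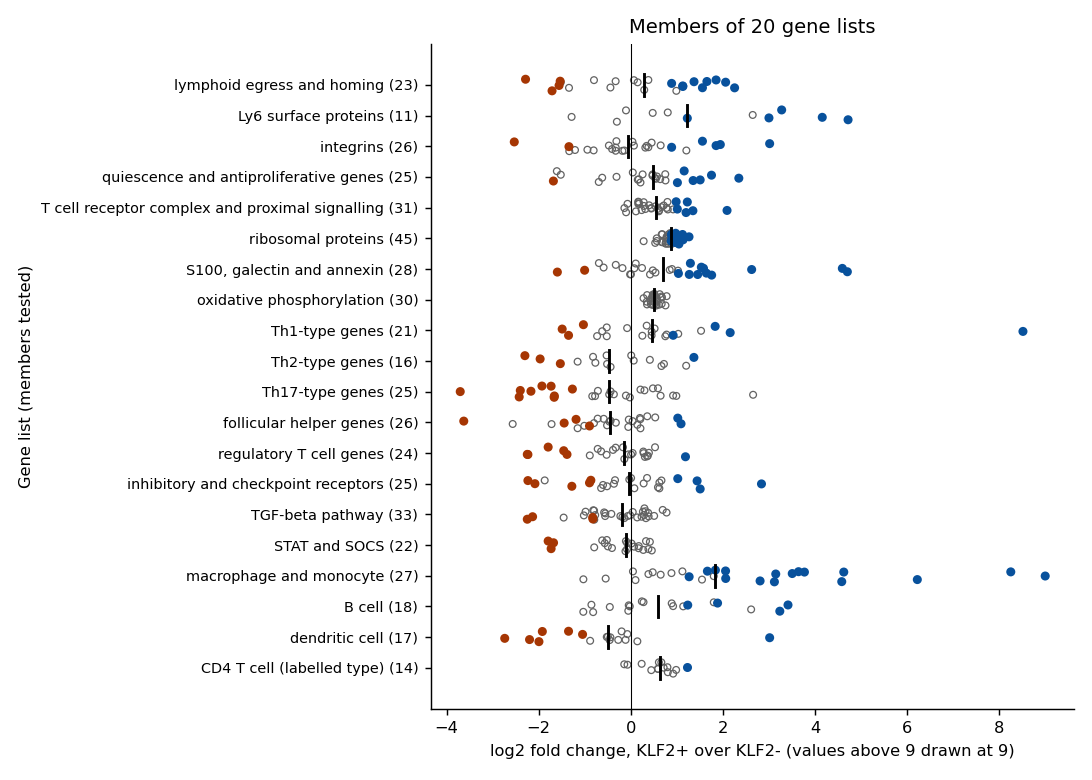
Log2 fold change of KLF2+ over KLF2- for each tested member of 20 gene lists, with the number tested in parentheses, filled points for called genes and a bar at each list's median. Of the Th17-type genes 9 are called, all lower, ribosomal proteins and oxidative phosphorylation genes lie wholly above 0, and macrophage genes reach the largest values.

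Inhibitory receptors were mixed, with 4 of 25 higher, 5 lower and 16 not passing. Beside Vsir and Btla, the higher genes were Lair1, a collagen receptor of lymphoid and myeloid cells, at 17.2 and 24.5 against 2.59 and 3.16 CPM (2.84 ± 0.42, edgeR adjusted p = 0.0018), and Lilrb4a at 51.3 and 88.3 against 24.8 and 26.5 CPM (1.44 ± 0.27). Beside Pdcd1 and Tigit, the lower genes were the PD-1 ligands Pdcd1lg2, at 13.5 and 12.3 against 54.8 and 54.8 CPM (-2.08 ± 0.24, edgeR adjusted p = 0.000337), and Cd274, at 103 and 86.5 against 164 and 181 CPM (-0.87 ± 0.21), and the prostaglandin E2 receptor Ptger2, at 57.1 and 59.1 against 167 and 115 CPM (-1.28 ± 0.23). Lag3 and Ctla4 did not pass (-1.87 ± 0.62 and 0.35 ± 0.30). Of 25 costimulatory receptors and ligands 4 were lower and 1 was higher. The CD28 ligands were lower, Cd86 at 13.8 and 18.1 against 108 and 75.7 CPM (-2.51 ± 0.26, edgeR adjusted p = 0.000174) and Cd80 at 13.9 and 7.46 against 39.05 and 30.7 CPM (-1.73 ± 0.34), as was the death receptor Tnfrsf21 at 19.7 and 10.3 against 41.6 and 32.4 CPM (-1.31 ± 0.33) beside Tnfrsf9. The death domain receptor Tnfrsf25 stood at 96.7 and 117 against 58.6 and 53.8 CPM (0.92 ± 0.21). Cd28, Icos, Cd27 and Tnfrsf4 did not pass (0.59 ± 0.24, 0.53 ± 0.22, 0.54 ± 0.27 and 0.27 ± 0.25). CD80, CD86 and both PD-1 ligands are known from antigen-presenting cells and moved with the mature dendritic cell genes given below. Their part in these results was not tested. Macrophage and monocyte markers were higher in 16 of 27, and the part of those cells in the Lair1 and Lilrb4a results was not tested. Lilrb4a, Cd274, Tnfrsf21 and Tnfrsf25 were not called without KLF2- replicate 3 (edgeR adjusted p 0.116 to 0.792) or without KLF2- replicate 4 (0.0645 to 0.892), and Ptger2 and Cd80 were not called without KLF2- replicate 3 (edgeR adjusted p 0.355 to 0.529). Tnfrsf21 was not called after background subtraction (edgeR adjusted p 0.0567).

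Components of T cell receptor signalling leaned to KLF2+ cells, with 6 of 31 higher and 25 not passing. Their median log2 fold change was 0.54, against -0.08 over all genes, and 28 of 31 lay above 0. When scaled on genes of at least 50 CPM the median was 0.25 against -0.35, and 20 lay above 0. Leaving out libraries moved the median from 0.30 without KLF2+ replicate 2 to 0.69 without KLF2+ replicate 1. The CD4 T cell markers, which share Thy1 with this list, had a median of 0.64 in the reported fit, with 12 of 14 above 0. The lean was thus not particular to receptor signalling, and the part of T cell content in it was not tested. Rasgrp2, an activator of the adhesion switch RAP1, stood at 73.1 and 93.4 against 14.5 and 24.4 CPM (2.09 ± 0.27, edgeR adjusted p = 0.000744). The adaptor genes Trat1, at 195 and 229.6 against 87.8 and 78.8 CPM (1.35 ± 0.21), and Sit1, at 76.2 and 126 against 41.1 and 47.1 CPM (1.20 ± 0.26), the phosphatase Ptpn6, at 296 and 381 against 159 and 177 CPM (1.01 ± 0.23), and the kinase Txk, at 102 and 142 against 61.4 and 61.8 CPM (0.99 ± 0.22), were also higher. Thy1 was the sixth. Lck, Zap70 and Lat did not pass (0.80 ± 0.28, 0.18 ± 0.21 and 0.92 ± 0.28). Higher genes ran from 1 without KLF2- replicate 3 or KLF2- replicate 4 to 25 without KLF2+ replicate 1. Trat1, Sit1, Ptpn6 and Txk were not called without KLF2- replicate 3 (edgeR adjusted p 0.193 to 0.984) or without KLF2- replicate 4 (0.194 to 0.706).

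Genes that follow calcium, MAP kinase and NF-kappaB signals were split, 5 of 39 higher, 6 lower and 28 not passing. Rgs1, a brake on chemokine receptor signals that is known to be low where KLF2 is high, stood at 51.5 and 76.1 CPM in KLF2+ replicates 1 and 2, and 582 and 525 CPM in KLF2- replicates 3 and 4, an 8.66-fold difference (-3.11 ± 0.26, edgeR adjusted p = 4.48e-05). The AP-1 gene Jun stood at 14.9 and 17.8 against 58.4 and 71.97 CPM (-1.99 ± 0.24, edgeR adjusted p = 0.000466), the phosphatase Dusp5 at 38.5 and 53.7 against 136 and 199 CPM (-1.86 ± 0.26) and Cd83, a surface protein of activated and dendritic cells, at 82.9 and 108 against 414 and 371 CPM (-2.04 ± 0.23). Ikzf3 and Bhlhe40 were the other lower genes. The higher genes were Tagap, a GTPase activator, at 171 and 210.2 against 53.3 and 48.2 CPM (1.91 ± 0.22, edgeR adjusted p = 0.000314), Nfkbid at 80.9 and 77.8 against 33.01 and 34.5 CPM (1.23 ± 0.21), Egr1 at 47.9 and 56.1 against 28.1 and 27.1 CPM (0.91 ± 0.23), Myc at 122 and 116 against 74.03 and 51.6 CPM (0.92 ± 0.23) and Cd69. The orphan receptor genes did not pass, with log2 fold changes of 1.23 ± 0.35 for Nr4a1, -0.84 ± 0.35 for Nr4a2 and -1.66 ± 0.57 for Nr4a3, nor did Egr2 (1.36 ± 0.38) or Fos (1.42 ± 0.60). After background subtraction 2 were higher and 9 lower. Rgs1, Jun, Dusp5, Cd83 and Tagap were called under each of the 14 alternatives. Nfkbid, Egr1, Myc, Cd69, Ikzf3 and Bhlhe40 were not called without KLF2- replicate 3 (edgeR adjusted p 0.149 to 0.78) or without KLF2- replicate 4 (0.174 to 0.935). Egr1, Myc and Cd69 were not called after background subtraction (edgeR adjusted p 0.0539 to 0.145). Egr1 was also lost when scaled on genes of at least 50 CPM, with limma on either TPM scale and with all 8 libraries in the fit. Of 18 anergy genes only Bcl2l11 was called, which is lower and is taken up with the BCL2 family. Cblb, Rnf128, Itch and Dgka did not pass (-0.31 ± 0.20, 0.90 ± 0.27, 0.02 ± 0.21 and 0.73 ± 0.27), and 4 were lower after background subtraction.

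The cytokine feedback genes Socs1, Socs2 and Cish were lower in KLF2+ cells. They were the 3 calls among 22 STAT, JAK, PIM and SOCS genes, of which 9 lay above 0 and whose median log2 fold change was -0.09, near that of all genes. Socs1 stood at 109 and 77.9 against 335 and 283 CPM (-1.73 ± 0.24, edgeR adjusted p = 0.00105), Socs2 was given above, and Cish stood at 41.9 and 44.4 against 155 and 121 CPM (-1.68 ± 0.22). All 3 are known targets of STAT5, whose own genes Stat5a and Stat5b did not pass (-0.56 ± 0.21 and 0.17 ± 0.22). The lower genes numbered 6 after background subtraction. Of 33 TGF-beta pathway genes 4 were lower and 29 did not pass. Beside Lrrc32, these were Pmepa1, which dampens TGF-beta signals, at 5.60 and 8.94 against 35.7 and 28.7 CPM (-2.13 ± 0.34), Skil at 69.7 and 63.9 against 115 and 121 CPM (-0.83 ± 0.20) and Smurf1 at 72.1 and 60.98 against 108 and 127 CPM (-0.82 ± 0.21). Tgfb1 itself stood at 45.2 and 49.5 against 33.6 and 33.1 CPM (0.51 ± 0.22, edgeR adjusted p = 0.196) and Smad3 did not pass (-0.42 ± 0.22). Skil and Smurf1 were not called without KLF2- replicate 3 (edgeR adjusted p 0.666 to 0.789) or without KLF2- replicate 4 (0.881 to 0.935), and Pmepa1 was not called without KLF2- replicate 3 (edgeR adjusted p 0.108).

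In the Notch pathway 1 of 27 genes was lower and 1 higher, a share close to that of all genes, but the ligand Dll1 was among the largest differences. It stood at 4.1095 and 3.57 against 62.8 and 45.1 CPM, 14.2-fold lower in KLF2+ cells (-3.83 ± 0.31, edgeR adjusted p = 4.15e-05). Lfng, a glycosyltransferase that tunes Notch receptors, stood at 323 and 370.2 against 146 and 196 CPM (1.02 ± 0.23), and Notch1 did not pass (0.49 ± 0.24). In the Wnt pathway 1 of 30 was higher, Lef1, and 1 lower, Tcf7l2, at 8.04 and 6.84 against 24.1 and 23.3 CPM (-1.67 ± 0.34). Dll1 was called under each of the 14 alternatives. Lfng and Tcf7l2 were not called without KLF2- replicate 3 (edgeR adjusted p 0.507 to 0.995) or without KLF2- replicate 4 (0.421 to 0.489).

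Receptors for neuropeptides, hormones and lipid mediators included a pair of related genes that differed in opposite directions. Vipr1, a receptor for vasoactive intestinal peptide, was higher in KLF2+ cells, at 103 and 110.4 CPM in KLF2+ replicates 1 and 2, and 20.9 and 26.1 CPM in KLF2- replicates 3 and 4 (2.18 ± 0.22, edgeR adjusted p = 0.000174). Vipr2, the other receptor for the same peptide, was lower, at 1.91 and 1.44 against 25.7 and 22.04 CPM (-3.85 ± 0.42, edgeR adjusted p = 0.00025). In each gene both libraries of one population lay several times above both of the other, and both genes were called under each of the 14 alternatives. The serotonin receptor Htr7 was lower, at 5.90 and 4.47 against 29.9 and 32.3 CPM (-2.59 ± 0.34, edgeR adjusted p = 0.000694). P2rx7, Ptger2, Ramp1 and Drd5 were lower too, so that 2 of 32 tested genes were higher, 6 were lower and 24 did not pass. Adora2a, the adenosine receptor of T cells, and Ptger4 did not pass (-0.60 ± 0.22 and -0.03 ± 0.21). Drd5 was not called without KLF2- replicate 3 (edgeR adjusted p 0.779) or without KLF2- replicate 4 (0.855), and Ramp1 was not called without KLF2- replicate 3 (edgeR adjusted p 0.445).

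Of 17 cytotoxic genes, 4 were lower, 1 was higher (Nkg7) and 12 did not pass. Serpinb9, which shields a cell from its own granzyme B, stood at 142 and 148 against 643 and 542 CPM (-2.03 ± 0.23, edgeR adjusted p = 0.000314), and its relative Serpinb6b at 28.1 and 32.1 against 89.98 and 78.4 CPM (-1.48 ± 0.22). Gzma, which encodes granzyme A, stood at 3.57 and 2.37 against 30.9 and 16.9 CPM (-3.03 ± 0.45) and Cst7, an inhibitor of granule proteases, at 22.9 and 37.4 against 68.5 and 67.8 CPM (-1.17 ± 0.25). Gzmb and Prf1, the genes of granzyme B and perforin, did not pass (0.54 ± 0.36 and 0.52 ± 0.51). Receptors of innate-like T and NK cells were 4 higher and 2 lower of 22. Klrb1c (NK1.1) was higher, at 35.5 and 47.2 against 13.5 and 12.9 CPM (1.65 ± 0.27), and its neighbour Klrb1b lower, at 20.01 and 20.2 against 142 and 79.7 CPM (-2.46 ± 0.28, edgeR adjusted p = 0.000314). Klrd1, Fcgr3 and Tyrobp were the other higher genes, and Zbtb16, which encodes the innate-like T cell factor PLZF, was lower, at 20.3 and 10.1 against 38.1 and 38.5 CPM (-1.35 ± 0.32). Ncr1, a defining NK cell gene, did not pass (1.34 ± 0.46). Macrophage and monocyte markers, 16 of 27 higher, moved with the higher genes, and their part in the Fcgr3 and Tyrobp results was not tested. Reads may be split between the close copies of the Klrb1 and Serpinb families. Cst7, Klrb1c, Klrd1 and Zbtb16 were not called without KLF2- replicate 3 (edgeR adjusted p 0.0637 to 0.334) or without KLF2- replicate 4 (0.0789 to 0.357), and Serpinb6b, Gzma and Tyrobp were not called without KLF2- replicate 3 (edgeR adjusted p 0.0579 to 0.214), and Fcgr3 was not called without KLF2- replicate 4 (edgeR adjusted p 0.645). Klrd1 and Fcgr3 were not called after background subtraction (edgeR adjusted p 0.0689 to 0.0923).

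Genes of the BCL2 family were lower in 3 of 20 and did not pass in 17. The lower ones were Bcl2l14, at 9.65 and 8.77 against 36.8 and 51.2 CPM (-2.26 ± 0.28, edgeR adjusted p = 0.000594), and the death inducers Pmaip1 (NOXA), at 30.9 and 29.97 against 71.1 and 78.9 CPM (-1.30 ± 0.21), and Bcl2l11 (BIM), at 54.1 and 43.4 against 85.3 and 94.3 CPM (-0.88 ± 0.22). Bcl2, Bcl2l1 and Mcl1, the survival genes of T cells, did not pass (-0.74 ± 0.21, -0.21 ± 0.21 and 0.15 ± 0.25). The lower genes numbered 7 after background subtraction. Pmaip1 and Bcl2l11 were not called without KLF2- replicate 3 (edgeR adjusted p 0.0594 to 0.605) or without KLF2- replicate 4 (0.158 to 0.846).

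Most cell cycle genes did not pass. Of 31 S phase genes, Pcna, the sliding clamp of DNA polymerases, was higher at 125 and 165 against 78.5 and 69.6 CPM (0.97 ± 0.22), as were Dut and Cdt1, and 28 did not pass. Of 32 G2/M genes, Birc5, which encodes survivin, was lower at 17.99 and 13.4 against 39.1 and 31.2 CPM (-1.16 ± 0.28), and 31 did not pass. Mki67, a marker of cycling cells, stood at 25.5 and 16.7 against 16.6 and 15.6 CPM (0.38 ± 0.32, edgeR adjusted p = 0.481) and did not pass. S phase calls were 1 higher and 1 lower after background subtraction. Among 22 regulators of G1, the CDK inhibitors differed in both directions. Cdkn2b (p15) was lower by 8.87-fold, at 2.38 and 4.43 against 30.8 and 30.9 CPM (-3.15 ± 0.38, edgeR adjusted p = 0.000466), with Cdkn1a, and Cdkn2d (p19) was higher, at 77.5 and 131 against 48.4 and 55.03 CPM (1.01 ± 0.26). Cdkn1b (p27) did not pass (0.47 ± 0.26). Pcna, Dut, Cdt1, Birc5 and Cdkn2d were not called without KLF2- replicate 3 (edgeR adjusted p 0.205 to 0.956) or without KLF2- replicate 4 (0.318 to 0.881). Dut, Cdt1 and Cdkn2d were not called after background subtraction (edgeR adjusted p 0.0728 to 0.0916).

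Transcripts of cytosolic ribosomal proteins were higher as a group in KLF2+ cells. Of 45 tested, 21 were higher by edgeR against 2.34% of all genes and 24 did not pass. All 45 had log2 fold changes above 0, from 0.28 to 1.27, with a median of 0.88. The median was 0.58 when scaled on genes of at least 50 CPM and 0.56 after background subtraction, with 44 above 0 in each. Rplp1, of the stalk of the large subunit, stood at 172 and 202 against 100.1 and 89.2 CPM (0.98 ± 0.21, edgeR adjusted p = 0.0193). The list summed to 11212 and 14888 against 7389.7 and 6952 CPM, highest in KLF2+ replicate 2, the library with the highest share of tags over exons. The part of the exon share in this result was not tested. Many of these genes have near-identical pseudogenes, and reads that fit several copies may be treated in ways not given in the sources used here. Counts of higher genes by edgeR ran from 0 without KLF2- replicate 3 or KLF2- replicate 4 to 45 without KLF2+ replicate 1, and 1 was higher with all 8 libraries in the fit. Rplp1 was not called without KLF2- replicate 3 (edgeR adjusted p 0.666) or without KLF2- replicate 4 (0.837). 

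Oxidative phosphorylation genes also all lay above 0, from 0.28 to 0.78, with a median of 0.51, but 0 of 30 passed by edgeR. At an unadjusted edgeR p under 0.05, 15 passed, where 4055 of all 17620 genes did in either direction. DESeq2 called 1 higher, against 4.62% of all genes. After background subtraction 29 lay above 0 and the median was 0.18. Leaving out libraries moved that list's median from 0.19 without KLF2+ replicate 2 to 0.83 without KLF2+ replicate 1. Atp5b, of the ATP synthase and the most read of them, stood at 1043 and 1382 against 897 and 813 CPM (0.50 ± 0.26, edgeR adjusted p = 0.267). GIMAP genes, GTPases that keep lymphocytes alive, lay above 0 in all 8, with a median of 0.64 (from 0.28 without KLF2+ replicate 2 to 0.99 without KLF2+ replicate 1) and 1 call, Gimap5, at 82.01 and 125 against 49.6 and 58.8 CPM (0.94 ± 0.24). When scaled on genes of at least 50 CPM the 8 stayed above 0, but edgeR called 0 of them. On the TPM scale 26 of the 30 oxidative phosphorylation genes and 7 of the 8 GIMAP genes lay above 0. Gimap5 was not called without KLF2- replicate 3 (edgeR adjusted p 0.928) or without KLF2- replicate 4 (0.508). Gimap5 was not called after background subtraction (edgeR adjusted p 0.0711).

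Metabolic lists held calls in both directions, and most of their genes did not pass. Of 38 genes of amino acid, one-carbon and polyamine metabolism, 7 were higher, 1 was lower and 30 did not pass. Phgdh, the first enzyme of serine synthesis, stood at 127 and 140.2 against 63.5 and 65.3 CPM (1.05 ± 0.20), Psat1, the next enzyme of that path, at 55.4 and 51.3 against 22.7 and 26.9 CPM (1.11 ± 0.23), and Srm, the spermidine synthase, at 52.8 and 64.1 against 21.8 and 21.99 CPM (1.42 ± 0.23, edgeR adjusted p = 0.00338). Ass1, Trib3, Slc7a5 and Sms were the others. Azin2, a brake on antizyme, which in turn restrains polyamine synthesis, was lower by 20.4-fold, at 3.75 and 1.89 against 65.7 and 46.98 CPM (-4.35 ± 0.36, edgeR adjusted p = 4.48e-05). After background subtraction 5 were higher and 4 lower. Of 25 glycolysis genes 3 were higher and 2 lower. The background of calls over all genes is 4.70%. Ldha, lactate dehydrogenase A, stood at 901 and 1237 against 540.2 and 521 CPM (1.01 ± 0.26), the glucose transporter Slc2a1 at 81.5 and 102 against 46.2 and 44.7 CPM (1.02 ± 0.22) and the lactate transporter Slc16a1 at 54.4 and 53.7 against 27.9 and 23.01 CPM (1.09 ± 0.23). Pfkfb3, which sets the pace of glycolysis, was lower, at 36.63 and 41.3 against 84.7 and 104 CPM (-1.27 ± 0.22), with Eno2. Of 30 genes of cholesterol and fatty acid synthesis 3 were lower, Idi1 at 20.6 and 22.00 against 48.96 and 54.3 CPM (-1.28 ± 0.23) and Scd2 among them, and 1 was higher, Acss2, at 87.8 and 109.8 against 39.7 and 42.96 CPM (1.26 ± 0.22). Of 37 interferon-stimulated genes 3 were higher, Ifi203 at 176 and 257 against 78.8 and 78.5 CPM (1.46 ± 0.23) with Ifit2 and Cmpk2, 1 was lower, Gbp5, and 33 did not pass. Phgdh, Psat1, Srm, Trib3, Slc7a5, Sms, Ldha, Slc2a1, Slc16a1, Eno2, Idi1, Scd2, Acss2, Ifi203, Ifit2, Cmpk2 and Gbp5 were not called without KLF2- replicate 3 (edgeR adjusted p 0.0954 to 0.995) or without KLF2- replicate 4 (0.094 to 0.935), and Ass1 was not called without KLF2- replicate 3 (edgeR adjusted p 0.428), and Pfkfb3 was not called without KLF2- replicate 4 (edgeR adjusted p 0.278). Psat1, Slc7a5, Eno2 and Cmpk2 were not called after background subtraction (edgeR adjusted p 0.0503 to 0.0963).

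Small calcium-binding proteins, galectins and annexins, many of them high in effector memory T cells and in myeloid cells, were higher in 11 of 28 and lower in 2, and 15 did not pass. The list's median log2 fold change, 0.69, moved from 0.37 without KLF2+ replicate 2 to 0.91 without KLF2+ replicate 1. Macrophage and monocyte markers, which summed to 2205 and 3751 against 704 and 826 CPM, moved with it, and their part in the result was not tested. Lgals3 (galectin-3) stood at 217 and 404 CPM in KLF2+ replicates 1 and 2, and 46.4 and 54.3 CPM in KLF2- replicates 3 and 4 (2.63 ± 0.29, edgeR adjusted p = 0.000271), and the membrane protein gene Emp3 at 149 and 218 against 53.5 and 54.9 CPM (1.76 ± 0.24). S100a10 stood at 436 and 718 against 181 and 205 CPM (1.58 ± 0.27), S100a6 at 82.2 and 138 against 34.5 and 36.04 CPM (1.64 ± 0.26) and Anxa6 (annexin A6) at 550.4 and 739 against 215 and 231 CPM (1.53 ± 0.24). S100a4, Anxa1 and Anxa2 did not pass (0.00 ± 0.24, 0.08 ± 0.25 and -0.59 ± 0.24), and Anxa3 was lower, at 29.1 and 31.8 against 75.8 and 108 CPM (-1.59 ± 0.24). S100a8 and S100a9, which encode the abundant proteins of neutrophils, stood at 18.8 and 2.51 against 0 and 0.751 CPM and 20.8 and 2.17 against 0.493 and 0.483 CPM. Each was high in KLF2+ replicate 1 alone, and with Ltf and Ngp they made up the 4 higher of 12 neutrophil markers. Higher genes of the S100, galectin and annexin list ran from 4 without KLF2- replicate 3 to 20 without KLF2+ replicate 1. S100a10, Anxa6 and Ltf were not called without KLF2- replicate 3 (edgeR adjusted p 0.0755 to 0.491) or without KLF2- replicate 4 (0.0909 to 0.322), and S100a8 was not called without KLF2- replicate 3 (edgeR adjusted p 0.0814), and Anxa3 was not called without KLF2- replicate 4 (edgeR adjusted p 0.0806). S100a8, S100a9, Ltf and Ngp were not called after background subtraction (edgeR adjusted p 0.0619 to 0.0868).

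Outside the lists, the most read genes that were higher in KLF2+ cells included Atp1b3, a subunit of the sodium pump, at 2123 and 3334 CPM in KLF2+ replicates 1 and 2, and 663 and 705 CPM in KLF2- replicates 3 and 4 (2.00 ± 0.31, edgeR adjusted p = 0.00247), and Ms4a4b, a membrane protein of T cells, at 1867 and 3277 against 819 and 1006 CPM (1.49 ± 0.33). Fth1, the ferritin heavy chain, stood at 1834 and 3146 against 935 and 925 CPM (1.42 ± 0.32), Prdx1, a peroxide-removing enzyme, at 813 and 1249 against 424 and 405 CPM (1.32 ± 0.27), the lysosomal saposin precursor Psap at 1002 and 1167 against 495 and 518 CPM (1.10 ± 0.25) and Fam107b at 815 and 1172 against 459.5 and 512 CPM (1.03 ± 0.26). All 6 were higher in each KLF2+ library than in each KLF2- library, as were 27.5% of all tested genes. Among the most read genes that were lower were Tmem123, at 588 and 697 against 1350.5 and 1512 CPM (-1.16 ± 0.26), the Rab GTPase activator Tbc1d4, at 344 and 432 against 717 and 837 CPM (-1.001 ± 0.25), and Ncoa7, a nuclear receptor coactivator, at 155 and 136 against 732 and 525 CPM (-2.11 ± 0.25, edgeR adjusted p = 0.000402). Cst3 (cystatin C) stood at 160.2 and 214 against 534 and 568 CPM (-1.56 ± 0.24), the adaptor Samsn1 at 119 and 188 against 390.5 and 429 CPM (-1.42 ± 0.25), the vesicle protein Syngr2 at 165 and 247 against 449 and 507 CPM (-1.21 ± 0.25) and Apol7c at 119 and 137 against 318 and 429 CPM (-1.54 ± 0.23). Of these lower genes, all but Ncoa7 are also members of the mature dendritic cell list. Macrophage and monocyte markers, 16 of 27 higher, moved with the 6 higher genes, and the part of those cells in them was not tested. Atp1b3, Ms4a4b, Fth1, Prdx1, Psap, Fam107b, Tmem123, Tbc1d4, Cst3, Samsn1 and Syngr2 were not called without KLF2- replicate 3 (edgeR adjusted p 0.0795 to 0.995) or without KLF2- replicate 4 (0.1 to 0.935), and Apol7c was not called without KLF2- replicate 4 (edgeR adjusted p 0.17).

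The genes with the largest differences were of other kinds on each side. Lower in KLF2+ cells by the most were Azin2 (above), Insm1, a zinc finger factor of neuroendocrine cells, at 1.01 and 1.99 against 26.4 and 36.2 CPM (-4.34 ± 0.44, edgeR adjusted p = 0.000169), and Pkib, an inhibitor of protein kinase A, at 8.64 and 8.28 against 133 and 119 CPM (-3.90 ± 0.24, edgeR adjusted p = 5.69e-06). Ndrg4 stood at 2.20 and 2.44 against 21.7 and 32.9 CPM (-3.55 ± 0.40), Psd2 at 5.48 and 4.92 against 79.7 and 38.2 CPM (-3.50 ± 0.36) and Cx3cl1, the membrane-bound ligand of CX3CR1, at 7.15 and 4.37 against 67.9 and 51.4 CPM (-3.40 ± 0.31). All 5 were below 10 CPM in both KLF2+ libraries and above it in both KLF2- libraries. Aldh1a2, which makes retinoic acid, stood at 2.44 and 1.65 against 22.8 and 17.4 CPM (-3.33 ± 0.45, edgeR adjusted p = 0.000907), the calcium channel subunit Cacnb3 at 32.04 and 31.7 against 286 and 329 CPM (-3.27 ± 0.23), Mapk10 (JNK3) at 8.10 and 4.54 against 69.3 and 47.9 CPM (-3.24 ± 0.33) and Ecm1, a secreted matrix protein of Th2 cells, at 26.6 and 30.7 against 310.3 and 204 CPM (-3.16 ± 0.26). Of these 9 genes besides Azin2, Pkib lost its call with all 8 libraries in the fit, and the other 8 were called under each of the 14 alternatives.

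Higher by the most were largely genes of macrophages. Lyz2, the macrophage lysozyme, stood at 746 and 1427 CPM in KLF2+ replicates 1 and 2, and 3.39 and 3.59 CPM in KLF2- replicates 3 and 4 (8.25 ± 0.42, edgeR adjusted p = 2.57e-06), and Clec4n, a lectin of myeloid cells, was found at 561 and 1606.5 reads against 0.5 and 0. Lpl, lipoprotein lipase, stood at 149 and 242 against 10.04 and 8.04 CPM (4.43 ± 0.30) and Gpnmb, a glycoprotein of lipid-laden macrophages, at 248 and 449 against 12.9 and 18.1 CPM (4.49 ± 0.33). The iron transporters Slc40a1 (ferroportin), at 28.5 and 47.8 against 0.246 and 0.215 CPM, and Slc11a1, at 30.7 and 46.8 against 1.66 and 1.45 CPM (4.58 ± 0.39), were also near 0 in KLF2- libraries. Complement factor B, Cfb, stood at 58.2 and 66.3 against 2.09 and 4.02 CPM (4.32 ± 0.33), C1qb at 15.3 and 37.5 against 0.308 and 0.429 CPM, and the inhibitory Fc receptor Fcgr2b at 16.9 and 22.8 against 1.11 and 1.13 CPM (4.18 ± 0.48). Fcmr, the IgM receptor, stood at 16.1 and 34.8 against 0.246 and 2.47 CPM (4.18 ± 0.68). Of 27 macrophage and monocyte markers 16 were higher and 11 did not pass, with a median log2 fold change of 1.84 and 2.13 after background subtraction. The summed level was 2205 and 3751 against 704 and 826 CPM, and both KLF2+ libraries exceeded both KLF2- libraries. Csf1r, the growth factor receptor that defines the lineage, stood at 54.9 and 64.7 against 6.04 and 4.56 CPM (3.51 ± 0.28, edgeR adjusted p = 4.15e-05). Adgre1, which encodes F4/80, Mrc1 and Cd163 did not pass (1.55 ± 0.45, 0.05 ± 0.49 and 0.10 ± 0.66). Higher genes of the list ran from 11 without KLF2- replicate 4 to 21 without KLF2+ replicate 1. Reads may be split between Lyz1 and Lyz2, which are close copies.

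B cell markers were higher in 4 of 18, and 14 did not pass. Cd79a, of the B cell receptor complex, stood at 28.8 and 67.4 against 1.601 and 7.35 CPM (3.42 ± 0.55, edgeR adjusted p = 0.00323), and Cd79b and Ms4a1 were also higher. Jchain, the joining chain of secreted antibodies, differed more between replicates than between populations, at 290.3 and 1048 against 11.2 and 372 CPM (1.80 ± 0.96, edgeR adjusted p = 0.278), and the B cell markers summed to 581 and 1462 against 242 and 648 CPM. None of 8 plasma cell markers passed by edgeR or DESeq2. Ms4a1 was not called without KLF2- replicate 3 (edgeR adjusted p 0.592) or without KLF2- replicate 4 (0.235). Cd79a and Ms4a1 were not called after background subtraction (edgeR adjusted p 0.0523 to 0.0526).

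Dendritic cell markers went the other way, 6 of 17 lower in KLF2+ cells, 1 higher (Itgax) and 10 not passing. Flt3, the growth factor receptor of the lineage, stood at 11.5 and 12.5 CPM in KLF2+ replicates 1 and 2, and 46.5 and 63.5 CPM in KLF2- replicates 3 and 4 (-2.20 ± 0.26, edgeR adjusted p = 0.000402), and the lineage factor genes Zbtb46 at 9.77 and 6.84 against 32.9 and 32.9 CPM (-1.99 ± 0.31) and Batf3 at 3.99 and 3.85 against 26.7 and 25.96 CPM (-2.74 ± 0.35). Both KLF2- libraries were above both KLF2+ libraries in each, as in 32.6% of all tested genes. Cd74, the invariant chain of MHC class II, stood at 879.5 and 1428 against 1563 and 1747 CPM (-0.52 ± 0.30, edgeR adjusted p = 0.307). Of 12 genes of MHC class II presentation 1 was lower, Ciita at 11.97 and 10.9 against 24.9 and 30.5 CPM (-1.28 ± 0.30), and 1 was higher, H2-Ob at 36.4 and 68.5 against 10.4 and 18.9 CPM (1.84 ± 0.35). H2-Aa and H2-Ab1 did not pass (-0.27 ± 0.27 and 0.14 ± 0.27). In a list of 36 genes of mature dendritic cells, drawn up after the values were seen and so no support for the direction, 28 were lower and 8 did not pass. The list, which holds Ccr7, Ccl22, Ccl17, Cd83, Cd86, Cd80, Cd274, Pdcd1lg2, Socs2, Serpinb9, Anxa3 and Cacnb3 of the groups above, summed to 3572 and 4572 against 9673 and 10540.3 CPM. Its lower genes ran from 13 without KLF2- replicate 4 to 34 without KLF2+ replicate 2. The part of dendritic cells in the results on those genes was not tested. Zbtb46 and Ciita were not called without KLF2- replicate 3 (edgeR adjusted p 0.0579 to 0.488) or without KLF2- replicate 4 (0.0641 to 0.907), and H2-Ob was not called without KLF2- replicate 3 (edgeR adjusted p 0.0963).

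Markers of further cell types gave few calls. Kit was the 1 lower of 11 basophil and mast cell markers, and Fcer1a and Cpa3, defining genes of those cells, did not pass (0.17 ± 0.62 and 0.08 ± 0.51). Of 12 markers of NK and innate lymphoid cells 1 was higher (Klrb1c) and 3 were lower, Gzma and Zbtb16 among them, and the summed level was 136 and 136 against 233 and 187 CPM. The 9 erythroid and platelet markers did not pass, and summed to 175 and 60.8 against 49.8 and 43.4 CPM, highest in KLF2+ replicate 1. Neutrophil markers summed to 205 and 94.6 against 38.1 and 70.2 CPM, again highest in KLF2+ replicate 1. Col1a1, of collagen, was the 1 lower of 11 stromal and endothelial markers, at 2.92 and 1.34 against 11.8 and 8.42 CPM (-2.28 ± 0.57). Cd8b1, the 1 CD8 marker tested, and both gamma-delta T cell markers tested were not called. Col1a1 was not called without KLF2- replicate 3 (edgeR adjusted p 0.965) or without KLF2- replicate 4 (0.442).

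**Figure D5:**
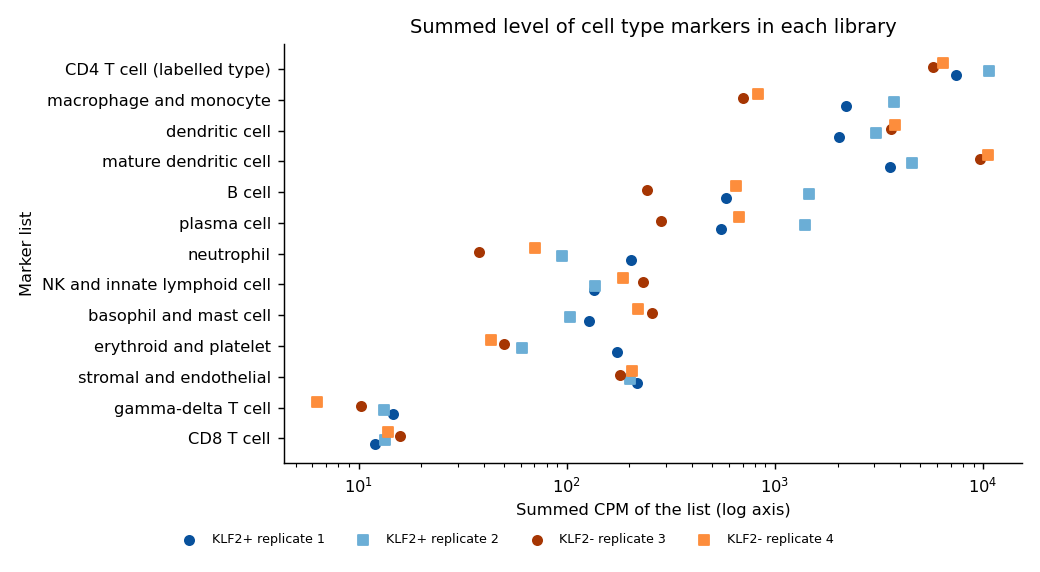
Summed CPM of 13 lists of cell type markers in each library, on a log axis, with KLF2+ replicates in blue and KLF2- replicates in orange. CD4 T cell markers lie between 5725 and 10657 CPM in every library, macrophage sums are higher in both KLF2+ libraries, and sums of dendritic and mature dendritic cell genes are higher in both KLF2- libraries.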

How the data were processed

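RNA-seq reads of sorted mouse CD4 T cells were summarised by the authors as estimated counts over exons of 1 model per gene (HOMER, mm10, no adjustment for depth, in steps of 0.5), per the file headers. The authors also deposited TPM values. STAR 2.7.9, HOMER 4.11, SAMtools and DESeq2 are named in the submitters' processing notes, and the strand setting and the treatment of reads that fit several places are not given in the sources used here. Reads of a gene and of an overlapping or antisense partner therefore cannot be told apart. The labels name both polyA RNA and a total RNA pico kit.

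Counts were rounded and tested over the 4 unstimulated libraries with edgeR 4.0.16 in R 4.3.3 (TMM scaling, filterByExpr, quasi-likelihood F test, 2 residual degrees of freedom, Benjamini-Hochberg adjustment over 17620 genes). The procedure was also run on simulated counts drawn with the spread that edgeR estimated from these libraries, so that run cannot check that spread. Background per kb of exon was estimated from 1464 olfactory and vomeronasal receptor genes spanning 1684 kb. The alternatives were DESeq2 1.42.0, limma 3.58.1 on log2(TPM + 1) and log2(TPM + 0.1), other scalings and filters, subtraction of 1 or 2 times the background, a fit to all 8 libraries, and each library left out. Differences on the TPM scale are on log2(TPM + pseudocount) and understate those of low genes.

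The members and the 54 gene lists were chosen with earlier results of these data known, and a further 2 lists after the values were seen. Genes were named by a rule: the 15 largest differences each way at a mean of at least 10 CPM, the 12 most read called genes each way, up to 6 called genes of each of 42 program lists and up to 4 of each of 12 marker lists by smallest p with the most read marker, and 25 genes of the sort and of helper subsets. Other list members, among them those given as not passing and Cd69, Gpr15, Myc, Cd274 and Itga5, were chosen after their values were seen. Promoter sequences are from RefSeq (GRCm38.p6). In leave-one-out fits the lone library of a population is assumed to vary like the other population. Some list members are not reported here by name.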

Additional observations from a re-analysis of the deposited data

How the results depend on the processing

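The 828 calls (412 higher, 416 lower) became 815 with DESeq2-type size factors (413 and 402), 870 when scaled on genes of at least 50 CPM (293 and 577) and 901 with a filter of 5 CPM in 2 libraries (435 and 466). Without a filter there were 1661 (781 and 880), after subtraction of the background 1226 (358 and 868), and of 2 times the background 1615 (512 and 1103). DESeq2 gave 1424 (814 and 610), limma on log2(TPM + 1) 1713 (526 and 1187), limma on log2(TPM + 0.1) 1328 (442 and 886), and the fit to all 8 libraries 444 (204 and 240). Leaving out a library gave 224 to 10274 calls, 91 to 5009 higher and 133 to 5265 lower. The lowest counts came without KLF2- replicate 3 and the highest without KLF2+ replicate 1. Of 204 named called genes other than Klf2, none changed direction in any of the 14 alternatives, while 118 lost their call without KLF2- replicate 3, 112 without KLF2- replicate 4, 77 with all 8 libraries and 23 after background subtraction. In all, 88 named called genes lost their call in an alternative other than those without a KLF2- library. Not all of these losses are given gene by gene above. Of the uncalled genes in the naming rule, Cd44 turned to -0.12 when scaled on genes of at least 50 CPM, -0.13 and -0.14 after subtraction of 1 and 2 times the background, and -0.18 on both TPM scales. Gata3 turned to -0.25, -0.27, -0.29, -0.31 and -0.32 in the same settings, to -0.034 with the 5 CPM filter, and ran from -0.28 without KLF2+ replicate 2 to 0.42 without KLF2+ replicate 1. Foxp3 turned to -0.030 and -0.043 on the TPM scales. Il21 turned to -0.088 when scaled on genes of at least 50 CPM, to -0.061 and -0.089 on the TPM scales, and ran from -0.12 without KLF2- replicate 3 to 0.68 without KLF2- replicate 4. Cd8b1 ran from -0.26 without KLF2- replicate 4 to 0.091 without KLF2- replicate 3. Of 68 further uncalled genes given in the report, 27 turned in at least 1 alternative, 20 of them when scaled on genes of at least 50 CPM and 17 without KLF2+ replicate 2; none was called where it turned, and the largest reported size among them was 0.36. The cause was not tested. No paired analysis was possible because the populations share no replicate number (1 and 2 against 3 and 4). A search for the CACCC box over all called genes was void, since the promoter table held 75.7% of the higher and 77.2% of the lower genes, under 80%. With 2 libraries per population, and 3 reads equal to 0.206 to 0.368 CPM, differences of low genes were measured with little precision.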
